A study of Mus musculus with 6 samples.

Results

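The cytosolic ribosomal protein genes encode the protein subunits of the ribosome that works in the cytosol. Members were all protein-coding genes of a RefSeq table of the GRCm38.p6 mouse build whose symbol is Rpl or Rps followed by a number, or is Rplp0, Rplp1, Rplp2 or Rpsa, without the Rps6k kinases and Rps19bp1. The rule uses names only and no measured value. It found 90 of the 21883 protein-coding genes on chromosomes 1 to 19, X and Y, of which 56 were large-subunit (Rpl) and 34 small-subunit (Rps) genes. Of these, 77 were the canonical genes, 7 were paralogs with their own symbols (Rpl3l, Rpl7l1, Rpl10l, Rpl22l1, Rpl36al, Rpl39l, Rps27l), and 6 were retrogene-type entries that the symbol rule also takes in (Rpl31-ps12, Rpl32l, Rpl34-ps1, Rpl37rt, Rps23rg1, Rps27rt).

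The data are regions called from chromatin immunoprecipitation of H3K4me3, trimethylated lysine 4 of histone H3, which sits around the starts of genes in use. The knockout (KO) library came from CD8+ lymphocytes that had infiltrated E0771 tumours, a mouse mammary tumour line, in C57BL/6 mice with a Cre-mediated deletion of Atg5 (Atg5-/-), a gene needed to build autophagosomes. The wild-type (WT) library is labelled as the same kind of cells from the same tumour and strain, without the deletion, a label that the T cell markers below go against. The labels name neither the Cre driver nor the number or age of the animals, and each genotype had 1 library. No difference between genotypes therefore has a replicate check, no p-value is given, and the regions describe these 2 libraries only.

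Ribosomal protein genes are transcribed at a high rate in nearly all cells, and T cells raise their output when they start to grow and divide. Their messenger RNAs begin with a C followed by a run of pyrimidines, the TOP motif, through which the growth kinase mTORC1 sets their translation. Many of these genes are short, several carry small nucleolar RNAs (snoRNAs) in their introns, and the mouse genome holds many processed pseudogenes copied from their messenger RNAs.

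The KO list held 46565 regions over 73.1 Mb and the WT list 48546 regions over 71.3 Mb. Sequencing depth cannot be read from the lists and is unknown. The labelled cell type was checked against 12 T cell genes. All 12 had regions within 2.5 kb of their 5′ end in the KO list, with 52259 bp covered in sum, against 6 of 12 and 3973 bp in the WT list. Cd3e, Cd8a, Cd2, Lat, Zap70 and Bcl11b were at 0 in the WT list, so the defining CD8 T cell markers Cd3e and Cd8a go against the label of that library. All 8 myeloid genes were covered in both lists, with 15403 bp in KO and 16308 bp in WT, and all 6 epithelial tumour genes with 13155 and 8832 bp. Of 6 fibroblast and endothelial genes 5 were covered in each list, with 12537 bp in KO and 16421 bp in WT, and of 5 B cell genes 2 were covered in KO (2266 bp) and 0 in WT. The part of these other cells in the results on ribosomal protein genes was not tested, and with 1 library per genotype no result can be given without either library.

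Promoter sequences show what members share beyond their names. RefSeq promoters of the same build matched 69 of the 90 members, 57 of them canonical, and 17491 coding genes in all. In the 300 bases from 250 before to 50 after the annotated start, searched on both strands, the ETS-factor letters CCGGAAG stood in 23 of 57 canonical promoters (40.4%), against 11.9% of all promoters and 18.8% of those of genes marked in both lists. The YY1 letters AAGATGG stood in 9 (15.8%), against 6.35% of all promoters and 7.15% of those of marked genes. The Sp1 letters GGGCGG stood in 34 (59.6%), above the 46.3% of all promoters and below the 66.2% of those of marked genes. The TATA-box letters TATAAA stood in 6 (10.5%), below the 13.3% of all promoters and above the 6.78% of those of marked genes. None of these motifs contains another. A run of at least 8 C or T letters that reached the 5 bases on either side of the start was found in 19 of 57 canonical promoters (33.3%), against 9.56% of all promoters and 9.72% of those of marked genes. The start base was C in 20 (35.1%), against 13.7% and 14.7%.

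The stretches below run from 100 bases before the annotated start to 19 after it, 5′ to 3′ on the gene's strand, and the capitals mark the longest run of C and T at the start. Rps6, Rplp2, Rpl13a and Rpl38 are shown for a long run, and Rps12 and Rpl5 are canonical genes with a short one at the annotated start. Rpl3l, Rpl10l and Rpl39l are tissue-restricted paralogs. Runs that did not reach the 5 bases on either side of the annotated start were not counted. The stretches of Rps12 and Rpl5 hold longer runs outside those bases. Whether the annotated starts are the ones used in these cells was not tested.
Rps6, chr4:86857348-86857467, minus strand: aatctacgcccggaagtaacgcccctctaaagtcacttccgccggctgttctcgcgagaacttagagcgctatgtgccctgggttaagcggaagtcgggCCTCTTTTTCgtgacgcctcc
Rplp2, chr7:141447551-141447670, plus strand: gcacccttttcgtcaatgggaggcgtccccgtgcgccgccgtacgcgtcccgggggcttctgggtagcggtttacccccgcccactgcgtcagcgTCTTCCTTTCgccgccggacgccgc
Rpl13a, chr7:45128726-45128845, minus strand: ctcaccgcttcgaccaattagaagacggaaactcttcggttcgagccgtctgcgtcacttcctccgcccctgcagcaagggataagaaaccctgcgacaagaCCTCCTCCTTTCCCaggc
Rpl38, chr11:114668480-114668599, plus strand: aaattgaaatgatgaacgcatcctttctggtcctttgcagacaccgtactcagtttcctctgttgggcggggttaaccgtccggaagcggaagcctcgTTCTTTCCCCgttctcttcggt
Rps12, chr10:23787190-23787309, minus strand: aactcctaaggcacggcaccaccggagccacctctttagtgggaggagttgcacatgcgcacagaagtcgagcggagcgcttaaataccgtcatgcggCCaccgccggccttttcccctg
Rpl5, chr5:107900428-107900547, plus strand: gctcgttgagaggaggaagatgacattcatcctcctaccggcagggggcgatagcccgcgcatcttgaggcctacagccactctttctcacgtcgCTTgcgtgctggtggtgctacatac
Rpl3l, chr17:24727726-24727845, plus strand: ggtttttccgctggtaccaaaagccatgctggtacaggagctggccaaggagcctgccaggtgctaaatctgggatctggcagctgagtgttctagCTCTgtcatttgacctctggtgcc
Rpl10l, chr12:66284382-66284501, minus strand: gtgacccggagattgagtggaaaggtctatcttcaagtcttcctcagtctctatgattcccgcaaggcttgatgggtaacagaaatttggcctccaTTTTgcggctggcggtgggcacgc
Rpl39l, chr16:10170128-10170247, plus strand: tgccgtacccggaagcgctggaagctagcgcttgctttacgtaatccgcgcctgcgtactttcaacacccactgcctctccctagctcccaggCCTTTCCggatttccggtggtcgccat

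All 77 canonical ribosomal protein genes were marked by H3K4me3 in both libraries. Marked here means that a region reached to within 1 kb of the 5′ end, which was the annotated start for 57 canonical genes. For the other 20 it was the gene boundary with more covered length over both lists, a choice that favours coverage and may take the 3′ end. The annotated start itself lay under a region at 55 of 57 in KO (96.5%) and 56 of 57 in WT (98.2%). Over coding genes marked in both lists these shares were 93.7% and 90.9%. Over all 90 members, 82 were marked in KO (91.1%, exact 95% interval 83.2 to 96.1%) and 83 in WT (92.2%, 84.6 to 96.8%), beside 61.1% and 59.5% of all coding genes. In both lists 82 were marked, beside 57.9% of all coding genes. No member was marked in KO only, beside 3.24% of coding genes, and 1 was marked in WT only (Rps23rg1), beside 1.66%. The 7 members marked in neither list were Rpl10l, Rpl39l, Rpl31-ps12, Rpl32l, Rpl34-ps1, Rpl37rt and Rps27rt.

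Pseudogenes copied from these genes rarely carried the mark. The table holds 309 pseudogenes whose symbols meet the same rule, and a region lay within 1 kb of either end of 19 of them in KO (6.15%, 95% interval 3.74 to 9.44%) and of 23 in WT (7.44%, 4.78 to 10.96%). Among all 10429 pseudogenes of the table these shares were 6.70% in KO and 6.74% in WT. Exons of a gene and its processed pseudogenes can be nearly identical. How reads that match several places were treated is not given in the sources used here, and its part in these counts was not tested.

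**Figure D1:**
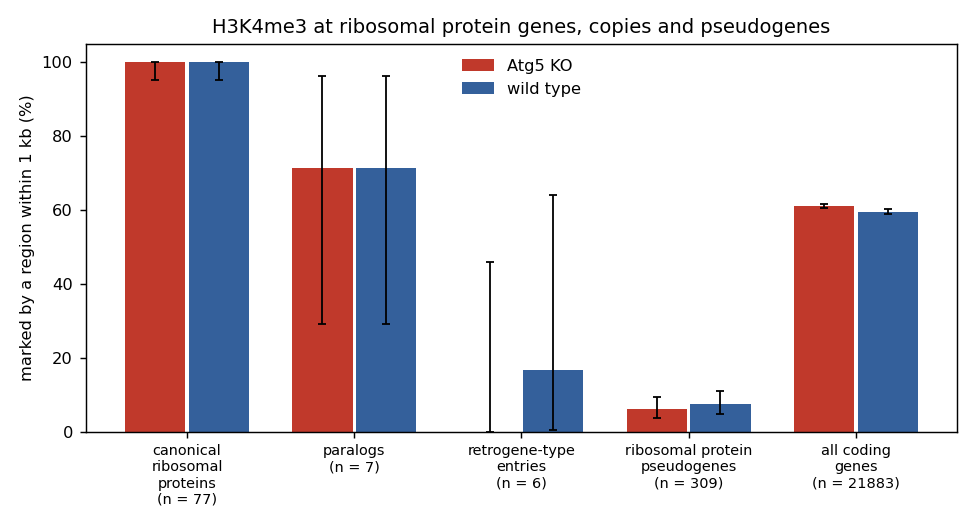
Share of genes with an H3K4me3 region within 1 kb of the 5′ end (either end for pseudogenes) in the KO and WT lists, for each class of ribosomal protein gene and for all coding genes. Bars are percentages and error bars are exact 95% intervals, which cover counting error only. Canonical genes stand at 100% in both lists, pseudogenes at 6.15% in KO and 7.44% in WT, and all coding genes at 61.1% in KO and 59.5% in WT.

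Around the 5′ end of a canonical ribosomal protein gene a similar length lay under regions in KO and in WT. Covered length counts the bases under regions in a window of 2.5 kb to each side of that end, at most 5001 bp. Cells were measured in bulk, so fewer cells with a mark and less mark per cell cannot be told apart. Its median over the 77 genes was 3353 bp in KO (interquartile range 2917 to 3708) and 3350 bp in WT (2955 to 3711), beside 2605 and 2603 bp over the 12667 coding genes marked in both lists. It ran from 1953 to 5001 bp in KO and from 2091 to 4965 bp in WT. Large-subunit and small-subunit genes had similar medians, 3326.5 and 3353 bp in KO and 3345 and 3364 bp in WT.

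The stalk that recruits translation factors is made of Rplp0, Rplp1 and Rplp2. Rplp0 had 2864 bp in KO and 2737 bp in WT, and Rplp1 had 3358 bp in KO and 2955 bp in WT. Rplp2 had 2828 bp in KO and 3015 bp in WT. Its members thus differed in both directions, with Rplp2 shorter in KO and the other members longer.

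Rps6, the substrate of the S6 kinases downstream of mTORC1, had 3311 bp in KO and 3044 bp in WT. Rpsa, which is also known as the laminin receptor, had 3205 bp in KO and 3347 bp in WT. Rps3, which lies where messenger RNA enters the small subunit, had 3171 bp in KO and 3404 bp in WT. Of these 3 small-subunit genes only Rps6 was longer in KO. Rps19, mutated in human Diamond-Blackfan anaemia, had 3708 bp in KO and 3757 bp in WT. Rps14, lost with part of chromosome 5 in a human myelodysplastic syndrome, had 3121 bp in KO and 2863 bp in WT. Rps19 thus differed by −49 bp and Rps14 by 258 bp. Rps27a, which encodes a fusion of ubiquitin and a small-subunit protein, had 3504 bp in KO and 3381 bp in WT, and the X-linked Rps4x had 2966 bp in KO and 3126 bp in WT.

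Rpl5 and Rpl11 bind the 5S RNA and, when ribosome assembly fails, the p53 regulator Mdm2. Rpl5 had 3206 bp in KO and 2797 bp in WT, and Rpl11 had 2676 bp in KO and 3066 bp in WT. These partners of 1 complex thus differed by similar lengths in opposite directions, 409 bp for Rpl5 and −390 bp for Rpl11. Rpl3, near the catalytic centre of the large subunit, had 3617 bp in KO and 3661 bp in WT. Rpl13a, which can leave the ribosome to silence inflammatory messenger RNAs in human monocytes, had 3683 bp in KO and 3711 bp in WT. Within the window Rpl3 differed by −44 bp and Rpl13a by −28 bp. The downstream side of Rpl13a was covered to the window's limit of 2500 bp in both lists, and its widest region reached beyond the window, with 10587 bp in KO and 3978 bp in WT. Rpl22, needed for the development of alpha-beta T cells in mice, had 2143 bp in KO and 2091 bp in WT, all of it downstream of the start used. RefSeq lists 2 starts for Rpl22, and the more upstream one was used.

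**Figure D2:**
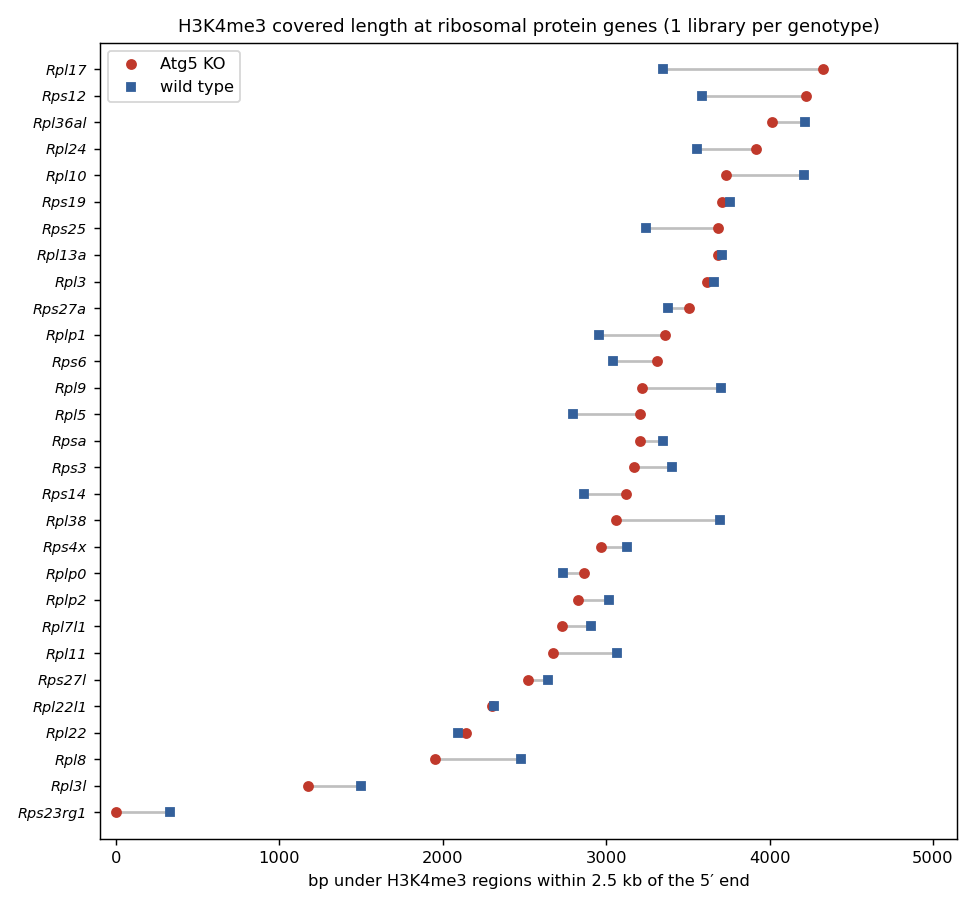
Bp under H3K4me3 regions within 2.5 kb of the 5′ end for 29 members with coverage in either list whose values are given in the text, ordered by the KO value, with circles for KO and squares for WT joined by a line. All of these but Rpl3l and Rps23rg1 stand above 1900 bp in both lists, and the lines are short for most genes, with the longest at Rpl17 (976 bp), Rps12 (635 bp) and Rpl38 (−638 bp).

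Large differences between the libraries were rare at ribosomal protein genes. Of the 83 members covered in either list, 3 had at least 500 bp more in KO (3.61%), beside 14.9% of the 14381 coding genes covered in either list, and 2 had at least 500 bp less (2.41%), beside 9.86%. Among genes marked in both lists the difference was under 500 bp for 77 of 82 members (93.9%), beside 79.2% of all such genes. Differences under 200 bp were as common among the members as elsewhere, 46.3% against 47.2%. The standard deviation of the difference was 300 bp over the 82 members and 527 bp over all genes marked in both lists. Differences of the members ran from −638 to 976 bp and those of all genes from −3024 to 4275 bp. The losses depended on the regions used: with the 20000 strongest regions of each list 6 members lost at least 500 bp (7.32%), beside 8.75% of covered genes. Within 5 kb 10 members gained (11.6%) and 11 lost (12.8%), beside 20.2% and 15.9%. Of the members with an annotated start 1 gained and 1 lost, a setting for which no share over all genes was computed.

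Most members were slightly shorter in KO, as were most genes. Covered length was shorter in KO for 52 of 83 members (62.7%), beside 52.4% of covered coding genes, and longer for 30 (36.1%), beside 46.6%. The median difference, KO minus WT, was −79 bp over the 83 members and −18 bp over the 14381 genes. Within 1 kb of the 5′ end the median was 0 bp for both.

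**Figure D3:**
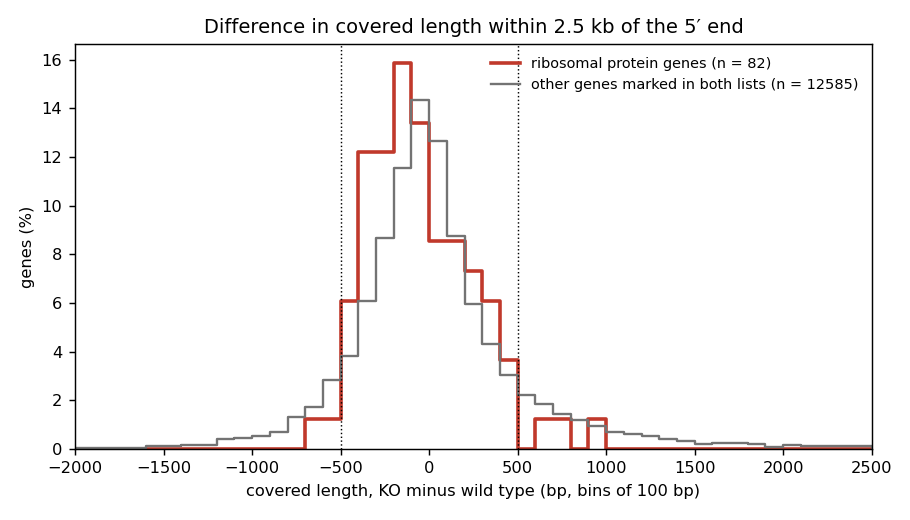
Distribution of the difference in covered length, KO minus WT, in bins of 100 bp, for the 82 ribosomal protein genes and the 12585 other coding genes marked in both lists; the axis shows −2000 to 2500 bp and dotted lines mark 500 bp in each direction. Of the members 77 lie between the dotted lines, and the ribosomal protein curve lacks the long tails of the other genes.

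Rpl17 and Rps12 were among the members with a gain of at least 500 bp. Rpl17, a protein at the exit tunnel of the large subunit, had 4326 bp in KO and 3350 bp in WT. Rpl17 had no annotated start, so its window lay at the gene boundary with more covered length, which may not be its 5′ end. That boundary itself was under a region in KO and not in WT. The window also holds a boundary of the coding gene BC031181. Rps12, a protein of the small subunit, had 4221 bp in KO and 3586 bp in WT, with 2500 against 1921 bp downstream of the start and 1720 against 1664 bp upstream. Most of the added length at Rps12 thus lay downstream of the start.

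The next largest gains stayed under 500 bp. Rps25, a small-subunit protein that viral internal ribosome entry sites need, had 3687 bp in KO and 3243 bp in WT. Rpl5 and Rplp1 followed with 409 and 403 bp more in KO, then Rpl21 with 393 bp and Rpl24 with 360 bp. Rpl24, mutated in the belly spot and tail mouse, had 3916 bp in KO and 3556 bp in WT. The windows of Rps25 and Rpl24 also hold boundaries of other coding genes. Rplp1 and Rpl21 had no annotated start, so their windows lay at the gene boundary with more covered length.

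The 2 losses lay at Rpl38 and Rpl8. Rpl38, which mouse embryos need for the translation of Hox messenger RNAs, had 3059 bp in KO and 3697 bp in WT. Upstream of its start 721 bp were covered in KO and 1214 bp in WT, and the KO list had 2 regions where the WT list had 1. Rpl8, a protein of the large subunit near the peptidyl transferase centre, had 1953 bp in KO and 2476 bp in WT, the lowest KO value of the canonical genes. Rpl8 had no annotated start, so its window lay at the gene boundary with more covered length. Its regions lay over the gene itself, 81.0% of which was covered in KO and 99.9% in WT. Both losses came from shorter or split regions and not from a missing one.

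Rpl9 and Rpl10 came closest to a loss with differences of −486 and −479 bp. Rpl10, the large-subunit protein that joins last, had 3731 bp in KO and 4210 bp in WT, and Rpl9 had 3217 bp in KO and 3703 bp in WT. Rpl7, Rpl13, Rpl27a and Rpl11 followed, from −438 bp for Rpl7 to −390 bp for Rpl11. All 8 of these largest losses were at large-subunit genes, which made up 46 of the 77 canonical genes. The small-subunit gene Rps20 came next with −387 bp, and the cut at 8 was set by the naming rule. Canonical genes of both subunits were shorter in KO at similar shares, 60.9% of the large and 58.1% of the small subunit.

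Coverage of canonical ribosomal protein genes reached far into the gene in both libraries. For the 57 with an annotated start, the median was 2227 bp downstream and 1071 bp upstream of it in KO, and 2294 and 1094 bp in WT. Over the 10166 coding genes with an annotated start that were marked in both lists, the medians were 1490 and 1007 bp in KO and 1463 and 1030 bp in WT. Downstream coverage exceeded upstream coverage at 55 of 57 in KO and 52 of 57 in WT (96.5% and 91.2%), beside 73.8% and 72.3% of those genes. At 1500 bp into the gene 100% of the 57 were covered in KO and 96.5% in WT, against 49.1% and 48.0% of other marked genes. At 1500 bp upstream the shares were 15.8% in KO and 21.1% in WT, against 23.4% and 24.4%. Translation factor genes were alike, with downstream medians of 2163 bp in KO and 2313 bp in WT over 29 genes. Their downstream coverage was the longer at 89.7% in KO and 86.2% in WT. Mitochondrial ribosomal protein, proteasome and ribosome biogenesis genes had lower downstream medians, from 1227 to 1648 bp in KO and from 1301 to 1698 bp in WT.

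The downstream side was covered over its whole 2500 bp in both lists at 15 of 57 canonical genes (Rps3, Rps4x, Rps18, Rps19 and Rpl13a among them), beside 9.63% of marked genes. At these genes no difference could appear on that side of the window. Upstream, coverage was shorter in KO at 38 of 57, beside 52.9% of marked genes, and longer at 15, beside 39.8%, with a median difference of −49 bp. Downstream it was shorter at 23, beside 43.3%, and longer at 19, beside 45.2%, with a median of 0 bp.

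**Figure D4:**
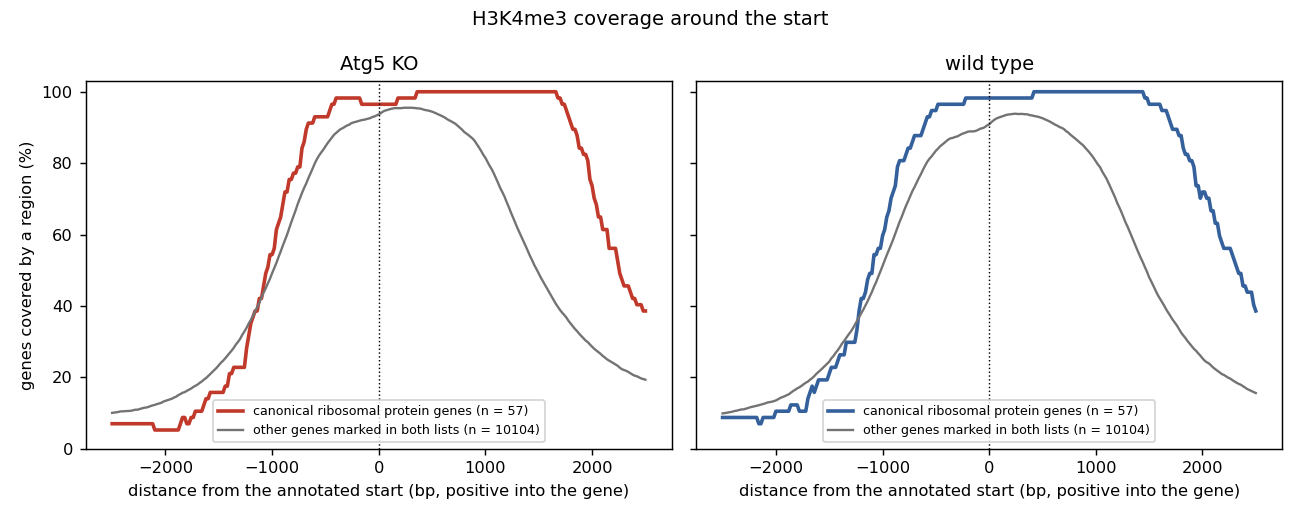
Share of genes covered by an H3K4me3 region at each distance from the annotated start (steps of 20 bp, positive into the gene) in the KO and WT lists, for 57 canonical ribosomal protein genes and 10104 other coding genes marked in both lists. The ribosomal protein curve stays at 96.5% or more 1500 bp into the gene in both lists, where other genes are at 49.1% in KO and 48.0% in WT.

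These genes are short, and the mark covered much of the typical one. The parts of gene length and of the longer downstream coverage in this were not tested. The median canonical gene was 3175 bp long, against 17170 bp for all coding genes. Regions covered a median of 71.9% of the gene in KO and 73.4% in WT, against 9.90% and 9.15% of genes marked in both lists. At least 90% of the gene was covered at 25 of 77 in KO (32.5%) and 22 of 77 in WT (28.6%), beside 2.92% and 2.60% of genes marked in both lists. Rplp1 and Rps18 were covered whole in both lists.

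Regions at ribosomal protein genes ranked high within each list, as did those at most marked genes. The fold values are the authors' own, reads at the summit over the local background, and were read within 1 list only. The highest fold at a canonical gene had a median of 39.8 in KO, where the median region had 8.02, and 31.8 in WT, where it had 7.81. Its median percentile was 93.1 in the KO list and 90.1 in the WT list, against 87.0 and 86.4 for all genes marked in both lists. Of the 77 genes, 50 had a region in the top 10% of the KO list (64.9%) and 39 in that of the WT list (50.6%), beside 39.6% and 38.4% of all genes marked in both lists. In KO the highest folds stood at Rps3 (56.1), Rpl13 and Rps27a (53.1 each). In WT the paralog Rpl7l1 had 48.6 and Rpl13 had 48.1, both among the highest members. The lowest among canonical genes was at Rpl39, a short protein of the exit tunnel, with 21.6 in KO and 14.0 in WT.

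The widest region at a canonical gene had a median width of 3493 bp in KO and 3365 bp in WT, against 2575 and 2551 bp for the widest region at all genes marked in both lists. The window of a canonical gene held a single region at 69 of 77 in KO (89.6%) and 67 of 77 in WT (87.0%), close to the 88.3% and 86.6% of all genes marked in both lists. The widest region at Rps18 had 7521 bp in KO and 6389 bp in WT. Rps2 had 6117 bp in KO and 6076 bp in WT, and Rpl18 had 5689 bp in KO and 5867 bp in WT. The windows of Rps2, Rps18 and Rpl18 also hold boundaries of other coding genes. The summit of the strongest region lay a median of 182 bp into the gene in KO and 176 bp in WT, and downstream of the start at 39 of 57 in KO (68.4%) and 34 of 57 in WT (59.6%), beside 66.8% and 64.3% of marked genes.

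**Figure D5:**
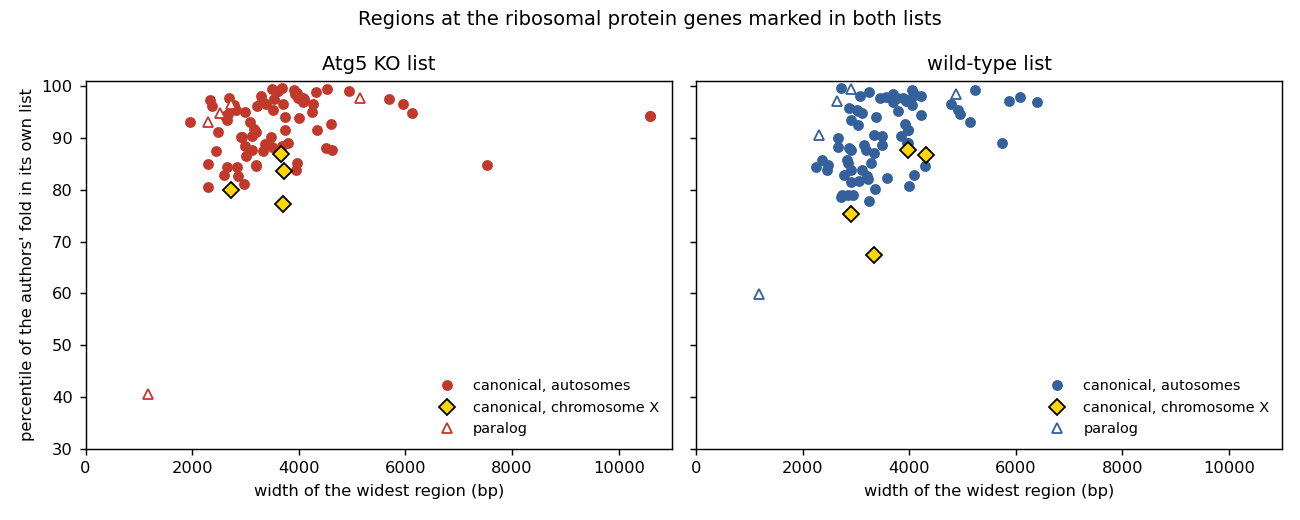
Width of the widest region (horizontal axis, bp) and percentile of the highest authors' fold within its own list (vertical axis, from 30) for the 82 members marked in both lists, KO on the left and WT on the right, with chromosome X genes and paralogs drawn apart. All canonical genes stand above the 67th percentile of their list, and Rpl3l is the low and narrow point in both, with a width of 1177 bp.

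Regions at the members were found again in the other library. All 89 KO regions in the members' windows overlapped a WT region (100%, 95% interval 95.9 to 100%), as did 90 of 94 WT regions with a KO region (95.7%, 89.5 to 98.8%), beside 75.97% of all KO regions and 73.3% of all WT regions. The other 4 WT regions were weak and short. They lay at Rps23rg1 (fold 3.33) and, over 1 kb from the start, near Rps27a (2.93), Rpl3l (4.94) and Rps13 (7.02). An overlap of 1 bp was enough, and regions at members were wide for their lists. The widest at a member marked in both lists had a median of 3437 bp in KO and 3343.5 bp in WT. Over all regions the median width was 1130 and 1103 bp. The share of overlap at other marked genes was not computed.

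The paralogs fell into those marked like canonical genes and those that were not. Rpl36al, a retrotransposed copy of Rpl36a that is itself used, had 4015 bp in KO and 4216 bp in WT in a window that also holds the start of Mgat2. Rpl7l1 had 2730 bp in KO and 2909 bp in WT, and Rps27l, a target of p53, had 2521 bp in KO and 2645 bp in WT. Rpl22l1, the paralog of Rpl22, had 2300 bp in KO and 2311 bp in WT. All 4 were thus covered over more than 2 kb in both lists. Rpl3l, the paralog of Rpl3 in heart and skeletal muscle, had 1177 bp in KO and 1501 bp in WT, with its best fold at percentile 40.5 of the KO list and 59.9 of the WT list, below all canonical genes. Rpl10l and Rpl39l, paralogs used in the male germ line, had 0 bp in both lists. Their promoters are among those printed above.

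The retrogene-type entries were almost without the mark. Rps23rg1 had 0 bp in KO and 329 bp in WT, and Rpl31-ps12, Rpl32l, Rpl34-ps1, Rpl37rt and Rps27rt had 0 bp in both lists. These entries had a median length of 538 bp in the gene table. No member of this group was thus covered in both lists.

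Gene lists for mitochondrial ribosomes, translation, ribosome assembly and the proteasome were set beside the same background. Of 78 mitochondrial ribosomal protein genes all were marked in both lists, 2 gained (2.56%) and 2 lost (2.56%) at least 500 bp, and the median difference was −79.5 bp. Of 38 translation factor genes 1 gained (2.63%) and 2 lost (5.26%), with a median of −104.5 bp. Of 32 ribosome biogenesis genes 0 gained and 2 lost (6.25%), with a median of −98 bp. Proteasome genes were taken by symbol (Psma, Psmb, Psmc or Psmd and a number), a rule that also takes in Psmc3ip. Of the 38 such genes with coverage 2 gained (5.26%) and 3 lost (7.89%), with a median of −24.5 bp. The gains were at Psmb8 (4704 bp in KO and 2479 bp in WT) and Psmb9 (4583 bp in KO and 3781 bp in WT), subunits of the immunoproteasome, and the share of losses was near that of all genes. Over all covered genes the shares were 14.9% and 9.86% and the median −18 bp. Covered length differed more between these lists than between genotypes. Among genes marked in both lists it was a median of 2354 bp in KO and 2454 bp in WT for mitochondrial ribosomal protein genes, and 3307 and 3433.5 bp for translation factors. Fau, which encodes a ribosomal protein fused to a ubiquitin-like sequence and falls outside the symbol rule, had 3335 bp in KO and 3895 bp in WT. Rack1, a scaffold on the small subunit, had 4240 bp in KO and 4633 bp in WT. Both were shorter in KO, Fau by more than 500 bp.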

How the data were processed

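Regions of 2 H3K4me3 libraries, 1 per genotype, were used, and samples of H3K27me3 and input were not used here. Regions were called with MACS2 on GRCm38 (mm10), per the submitters' processing notes; the aligner, filters on reads, MACS2 version and role of input were not given in the sources used here. The deposited fold ratios set the reads at a summit against that library's local background. Each summit also has −log10 values of p and q, as deposited (lowest −log10 q 2.02 in KO and 2.00 in WT), and the deposited score, which was not used, is a whole-number form of the −log10 q. The deposited lists also give other values, the summit positions. Values were not scaled between libraries, and region lengths depend on a depth that the lists do not give.

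The 64 KO and 65 WT regions on the mitochondrial genome and unplaced scaffolds were left out. Gene ends came from a RefSeq table. The 5′ end was the most upstream start listed in RefSeq promoters, if within 1 kb of the gene (17491 of 21883 genes). For the others it was the gene boundary with more covered length summed over both lists. No test was made, as each genotype had 1 library. The members, lists and named genes were chosen with earlier results of these data known. Genes were named by rule: the 8 largest gains and losses, members not marked in both lists, a fixed set, and extremes of fold and width; some of these are not reported here. Other genes were named for their place beside these or after their values were seen. Intervals are exact (Clopper-Pearson) and cover counting error only. Coverage code was tested on simulated regions. Figures were drawn with Matplotlib 3.10.9 and values computed with pandas 2.3.3, SciPy 1.17.1 and NumPy 2.4.6 under Python 3.11.15.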

Additional observations from a re-analysis of the deposited data

How the results depend on the processing

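No paired analysis was possible because each genotype had 1 library, and leaving out a library was not possible for the same reason. Of 86 values recomputed under 17 settings, 62 stayed close to the main value and 24 moved. With 1 kb on either side the median difference, KO minus WT, was 0 bp, with 19 members longer and 23 shorter. There was 1 gain (1.20%, against 7.89% of covered genes) and there were 0 losses (against 2.48%). The downstream median was 1000 bp in both lists, its limit there. With 5 kb there were 10 gains and 11 losses (11.6% and 12.8% of covered members, against 20.2% and 15.9% of covered genes), so the rarity of losses shrank with the wider window. Losses numbered 4 at a −log10 q of at least 5 (4.88%, against 9.77% of covered genes), 5 at 10 (6.10%, against 9.54%) and 6 with 20000 regions per list (7.32%, against 8.75%). Counting differences of at least 200 bp gave 17 gains and 28 losses, and of at least 1000 bp 0 and 0. Among genes marked in both lists, 46.3% of members and 47.2% of all genes differed by under 200 bp. Members with no other coding boundary within 2.5 kb gave 19 longer, 31 shorter and 1 gain, with upstream medians of 914 bp in KO and 950 bp in WT. Members with a start in the promoter table, a setting chosen after seeing the data, had 1 gain and 1 loss. With reciprocal overlap of at least 50%, 93.3% of KO regions were shared. Shares over all genes were not computed for gains and losses at the 200 and 1000 bp steps or in these groups of members. Nor was the share over all regions for reciprocal overlap. The causes of the shifts between settings were not tested, apart from fewer members or a smaller window where the setting itself brings them. The unknown depth limits all lengths.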

Other observations

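The 4 canonical genes on the X chromosome (Rpl10, Rpl36a, Rpl39 and Rps4x) had low authors' folds for their class, a grouping made after their values were seen. Their highest folds ran from 21.6 to 33.2 in the KO list, where the 73 autosomal canonical genes had a median of 40.6 and a lowest value of 25.3. In the WT list they ran from 14.0 to 29.9, where the autosomal genes had a median of 32.2 and a lowest value of 21.6. The ranges overlap in both lists. Rpl39 was the lowest canonical gene in each list.

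Annotated snoRNAs lay within 30 of the 77 canonical genes, 59 in all and up to 5 in a gene. Genes with a snoRNA had a median covered length of 3589 bp in KO and 3564 bp in WT, and those without one had 3151 bp in KO and 3185 bp in WT. The 19 genes with a run of at least 8 C or T letters at the start had 3353 bp in KO and 3364 bp in WT, and the 38 with a shorter run had 3256 bp in KO and 3373.5 bp in WT. Genes with another coding boundary in the window numbered 31 and had 3632 bp in KO and 3585 bp in WT, against 3146 bp in KO and 3124.5 bp in WT for the other 46. Gene neighbours were not separated from these comparisons.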
